A study of Nicrophorus vespilloides with 60 samples.

Results

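The 80 genes described here differed in mean level between larvae of *Nicrophorus vespilloides*, a burying beetle, raised with and without parental care, and differed less in larvae whose ancestors had evolved without care. They were chosen from the 13761 genes of the count table by a rule on measured values. Counts were divided by the library's total and scaled to counts per 1000000 (CPM), and the response of a line was its mean log2(CPM + 1) without care minus its mean with care. The rule kept genes with a mean CPM from 1 to 500 that moved the same way in both lines evolved with care, and whose mean response in both lines evolved without care was below 0.5 times that of the lines evolved with care. The 2066 genes that met these conditions were ranked by the smaller response of the lines evolved with care, and the highest 80 were taken. The smaller response in the populations evolved without care is therefore fixed by the choice and is given as a description with no test.

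Burying beetles breed on small vertebrate carcasses, which both parents clean, preserve with antimicrobial fluids and defend. Parents feed begging larvae with predigested carrion, and larvae without parents feed themselves from the carcass. A shift from feeding by parents to feeding alone, together with exposure to carcass microbes, is part of what the loss of care means for a newly hatched larva.

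RNA was sequenced from pools of 4 heads of first-instar larvae, with 1 library for each family. FC_POP denotes populations bred with parents present and NC_POP populations bred with parents removed, and each was kept as 2 lines that share a source population. F1 (FC_POP) and N1 (NC_POP) formed block 1, and F2 (FC_POP) and N2 (NC_POP) formed block 2, which ran 1 week apart. Parents of generation 29 were paired, both were left with the brood (FC_ENV) or removed at 53 h (NC_ENV), and larvae were collected 80 h after pairing. There were 12 families of FC_POP in FC_ENV, 11 of FC_POP in NC_ENV, 11 of NC_POP in FC_ENV and 12 of NC_POP in NC_ENV, with 5 or 6 in each line and environment. A population was thus represented by 2 lines, and the spread given below is the spread among families.

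The deposited counts of a library summed to between 102719698 and 145666277, and all 80 members passed the filter on low values (15 counts or more in 10% of the libraries or more). Genes are named by their RefSeq symbols. The reference used here gives no product for any member, so neither their functions nor the head tissue could be checked against marker genes. The annotation lists 78 members as protein coding, 1 as a long non-coding RNA and 1 as a pseudogene, and the median span of a member gene was 1817 bases against 2575 over the 11777 genes tested. CPM is not divided by gene length, and levels are therefore not compared between genes. A few families stood apart from their group. N1_29 (N1 in FC_ENV) had high levels in a group of members, N2_08 (N2 in NC_ENV) stood apart in several, and N1_27 (N1 in FC_ENV), N1_30 (N1 in NC_ENV) and N2_07 (N2 in NC_ENV) lay at the end of their groups in many. Results that rest on them are given with and without them.

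Of the 80 members, 69 had a higher and 11 a lower mean without care in both FC_POP lines, and these are termed rising and falling members as a name for that direction and not for a test. Signed by that direction, the median response over the members was 1.24 in F1 and 1.73 in F2, against 0.69 in N1 and 0.51 in N2 on the scale of log2(CPM + 1). The median absolute response over all genes tested was 0.26 in F1 and 0.26 in F2, against 0.24 in N1 and 0.23 in N2. A lower level in these pools may reflect fewer cells that express a gene or less RNA in each, and these cannot be told apart. The scatter of the responses shows where the members lie.

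**Figure D1:**
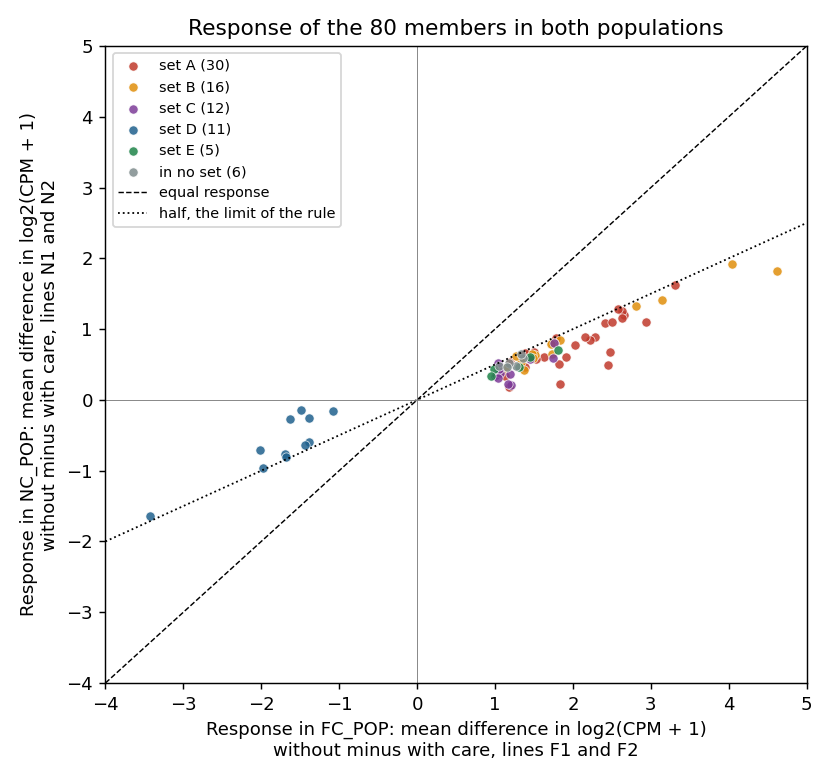
Mean response of the 80 members in NC_POP (vertical axis, lines N1 and N2) against FC_POP (horizontal axis, lines F1 and F2), in log2(CPM + 1) without minus with care. Each point is a gene, coloured by the covariation set described in the text, the dashed line marks equal response and the dotted line 0.5 times the FC_POP response. The rule kept points on the side of the dotted line nearer the horizontal axis or beyond that axis, and no point lies beyond it.

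The limits of the rule passed close to several genes. LOC108568718 was the last gene taken, with a smaller FC_POP response of 0.88, and LOC108564182, with 0.88, was the first left out. Among members, LOC108564204 had the highest ratio of the NC_POP to the FC_POP response, at 0.495, and LOC108561368 was left out at a ratio of 0.50. In all, 624 genes within the CPM limits moved the same way in both FC_POP lines by at least the value of the last member, and 544 of them had an NC_POP response at or above 0.5 times that of FC_POP. The members are thus a minority among genes with a response of this size. The lowest ratios belonged to LOC108561871 (0.101), LOC108556737 (0.122), LOC108560288 (0.144) and LOC108565464 (0.155), and the highest beside LOC108564204 to LOC108558601 (0.495), LOC108568442 (0.491) and LOC108566305 (0.490).

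The rule read only the mean of N1 and N2, and the lines contributed to it unequally. N1 responded less than F1, the line of its own block, in 70 members, and N2 less than F2 in 79, and both held in 69. A response below 0.5 times that of the FC_POP line of the same block was found in 44 members in N1 and in 57 in N2. Only 24 of the 80 would have been taken had each NC_POP line been required to lie below 0.5 times the mean FC_POP response. The sign was opposite to that of FC_POP in 8 members in N1 and in 6 in N2. On this scale N1 responded more than N2 in 50 members, whereas in the fit of the counts described below N1 responded more in 21 and less in 59. Which NC_POP line responded less thus depended on the scale.

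The rule fixes the difference between responses, and in part the environment in which the populations differ, so the gaps between populations are given as a description. In NC_ENV, all 80 members were closer to the FC_ENV side in NC_POP than in FC_POP, with a median gap of −0.83 in log2(CPM + 1), signed by the direction of the FC_POP response. In FC_ENV the median gap was 0.16, and 60 members lay on the side of the response in NC_POP. By the fit of the counts described below, 15 of the 80 had the larger population gap in FC_ENV and the others in NC_ENV. This count was 32 in block 1 alone, 18 in block 2 alone and 22 without N1_29 and N2_08. Over all genes tested, 4705 of 11777 had the larger gap in FC_ENV, so that the larger gap lay in NC_ENV for most genes and not for members alone.

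Families of the same line and environment differed widely in these genes. After subtracting the mean of each line and environment, the median SD of a member among families was 1.14 in log2(CPM + 1), against 0.26 over all genes tested. The rule did not read this variation among families, but it read means over the same families. Genes that vary widely can reach a large difference of means more easily. Neither this SD nor the correlations below are therefore independent of the choice. The correlation of this variation between pairs of members, over the 46 libraries, had a median of 0.093, close to the 0.103 over all pairs of genes tested. Of the member pairs, 21.5% had a Pearson correlation over 0.5, against 8.61% of all pairs. The points of such a correlation share their library, its depth and its 4 heads, and no test is given. Grouping the members by this correlation (average linkage on 1 − r, joined up to a distance of 0.6, chosen after the values were seen) gave 5 sets of at least 5 genes, named A to E, and left 6 members in no set.

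**Figure D2:**
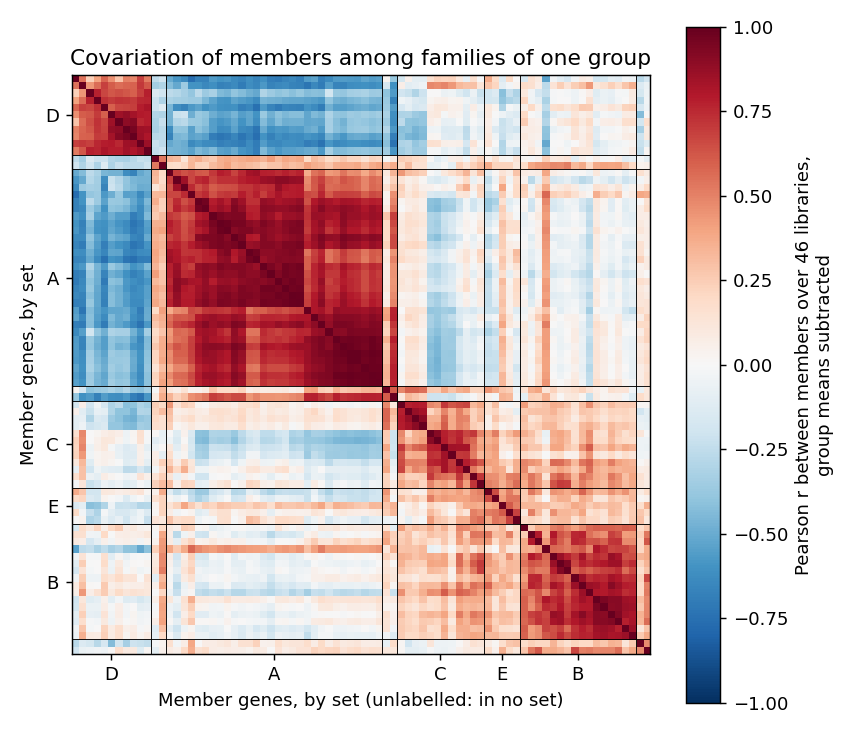
Pearson correlation between the 80 members over 46 libraries after the mean of each line and environment was subtracted, with members ordered by set (D, A, C, E and B, and narrow unlabelled strips for members in no set) on both axes and colour giving r from −1 to 1. Blocks of high correlation mark sets A (30 genes), B (16), C (12), D (11) and E (5), and sets A and D are opposed, with a median r of −0.535 between them.

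The sets were formed from the variation among families, and set D held all 11 falling members and no rising one. The responses are differences between means over the same families, so this agreement is not independent of the grouping. The median correlation within a set was 0.813 in A, 0.722 in B, 0.538 in C, 0.694 in D and 0.523 in E. Between sets, B, C and E were weakly related (medians of 0.293 for B and C, 0.292 for B and E and 0.272 for C and E), A and D were opposed at −0.535, and the other pairs lay between −0.086 and 0.027. The sets also differed in how the responses were distributed over the lines.

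**Figure D3:**
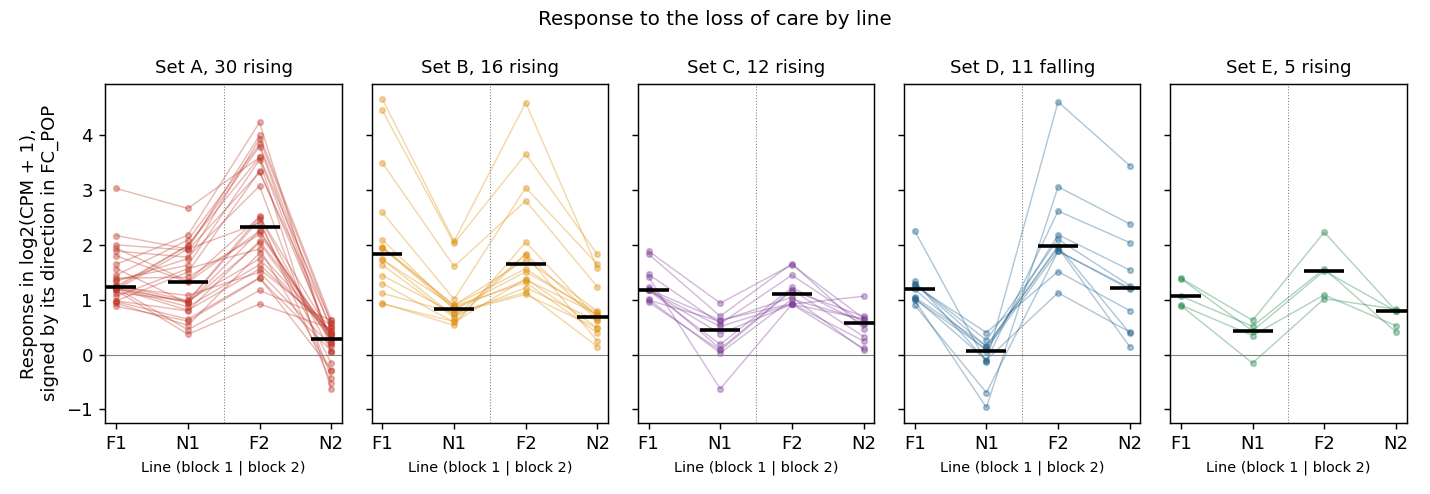
Response of each member in lines F1, N1, F2 and N2, in log2(CPM + 1) and signed by the direction in FC_POP, for sets A to E. Thin lines join the values of a gene and black bars are medians. Set A had its smallest median in N2 (0.28) and set D in N1 (0.07). In sets B, C and E the medians of both NC_POP lines lay below those of both FC_POP lines.

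Set B comprised 16 rising genes, among them 4 of the 5 highest in rank, and gave the clearest separation between environments. Its median response was 1.83 in F1 and 1.64 in F2, against 0.83 in N1 and 0.69 in N2, and in all 16 genes both N1 and N2 responded less than the FC_POP line of their block. The mean CPM of these genes over all libraries ran from 1.06 to 16.7. The set's median level per library was at most 0.75 in log2(CPM + 1) in every FC_POP family with care, and ran from 0.75 to 3.96 in the FC_POP families without care. In NC_POP it ran from 0.03 to 2.69 with care and from 0.10 to 2.71 without, so that these environments overlapped.

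LOC108558675 (gene4618 in the count table) had the highest rank. In FC_POP with care it ran from 0 to 0.883 CPM, with a median of 0.0493 over 12 families. Without care, the 11 FC_POP families ran from 3.99 to 241 CPM, with a median of 36.1. The environments did not overlap in FC_POP, and the lowest family without care had more than the highest with it. In NC_POP the 11 families with care ran from 0 to 20.9 CPM (median 0.0557) and the 12 without care from 0.0186 to 37.1 (median 3.20). Both NC_POP environments overlapped, through N1_29, which had 20.9 CPM with care, and through N2_03, which had 0.0186 without. The responses of the lines were 4.65 in F1 and 4.58 in F2, against 2.06 in N1 and 1.57 in N2.

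LOC108556837 (gene2977) was similar. In FC_POP it ran from 0 to 4.48 CPM with care (median 0.10) and from 4.33 to 185 without (median 18.1), so that the environments overlapped narrowly. In NC_POP it was listed at 0 in 6 of the 11 families with care and reached 11.9 CPM in N1_29. Without care, the 12 NC_POP families ran from 0.0744 to 36.5 CPM, with a median of 2.97. The median without care was thus lower in NC_POP than in FC_POP, whereas with care most families of both populations were near 0.

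LOC108566664 (gene11816), annotated as a pseudogene, had no counts in 9 of the 12 FC_POP families with care and in 8 of the 11 NC_POP families with care, and no family with care exceeded 0.0931 CPM. In FC_POP without care it ran from 0.464 to 111 CPM (median 5.28) and in NC_POP without care from 0.0372 to 25.5 (median 0.908). It was close to absent with care in both populations, and the populations differed in the level reached without it. The preceding genes in the annotation, LOC108566662 and LOC108566663, responded in the same way but were not members, since their NC_POP responses were 0.513 and 0.527 times those of FC_POP. Whether reads were divided among these 3 records was not tested.

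LOC108557915 (gene3956) varied more among families. In FC_POP it ran from 0 to 7.74 CPM with care (median 0.0122) and from 0 to 59.9 without (median 8.17). Families of NC_POP ran from 0 to 66.3 CPM with care (median 0.110) and from 0 to 94.3 without (median 2.40). The environments overlapped in both populations, and the highest NC_POP family with care was again N1_29. Only 3 members had all FC_POP families without care above all those with it, namely LOC108558675, LOC108566664 and LOC108558213 (gene4203, named after its values were seen), all of set B. A rise without overlap in FC_POP was found in 0.603% of all genes tested. None of the 11 falling members was without overlap in FC_POP, where 1.25% of all genes fell without overlap. No member was without overlap in NC_POP, where 0.238% of all genes rose and 0.552% fell without overlap.

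In N1 with care, N1_29 had the highest level in 15 of the 16 genes of set B, and its set median of 2.69 in log2(CPM + 1) lay above the 0.60 of the next family. Without N1_29 the median response of set B in N1 was 1.17 in place of 0.83, which remained below the 1.83 of F1. The F1 value also depended on a single family, F1_09A, which had the highest level in all 16 genes in F1 without care. With F1_09A left out, the F1 median was lower than 1.83 but remained above 1.17. The F2 median was 1.31 without F2_36, in place of 1.64. N1_35 was lowest in all 16 genes in N1 without care, and without it the N1 median was 1.07. N2_08 had the highest level in 9 of the 16 genes in N2 without care, and without it the response in N2 was 0.51 in place of 0.69.

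**Figure D4:**
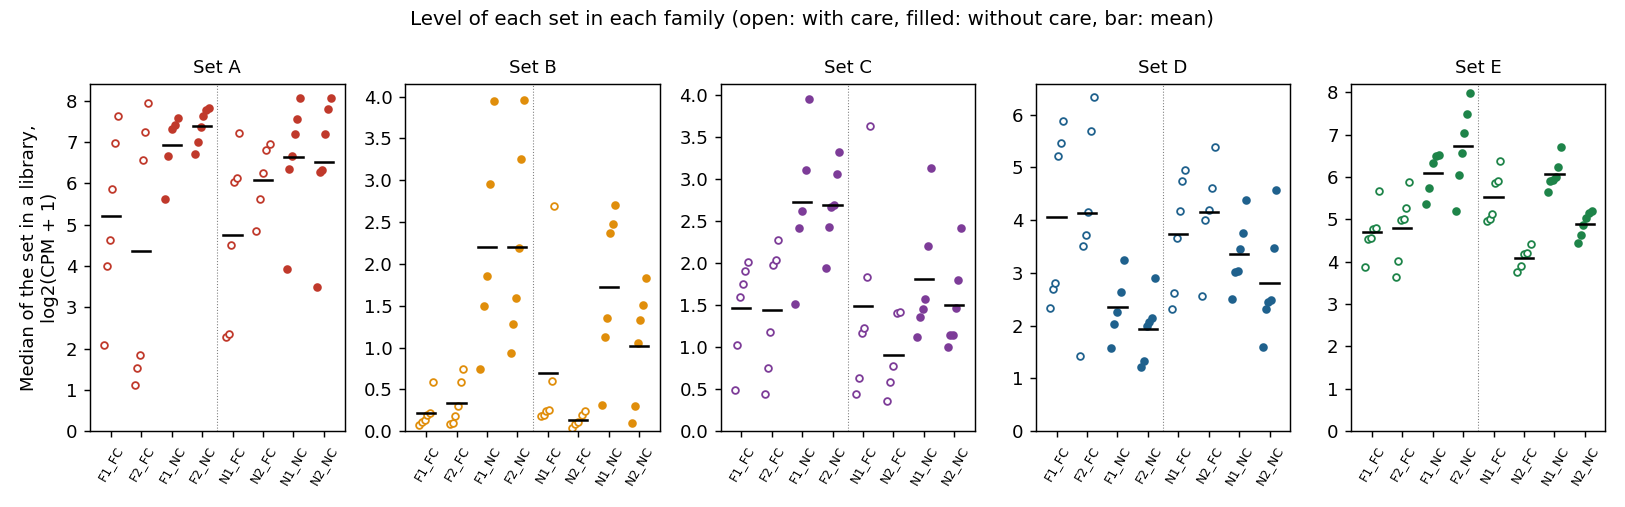
Median log2(CPM + 1) over the genes of each set in every library, by line and environment (F1, F2, N1, N2 with FC_ENV or NC_ENV). Open points are families with care, filled points families without care and bars group means, and each panel has its own scale. The highest point of set B in N1_FC is N1_29 (2.69), and the lowest of set A in N2_NC is N2_08 (3.5).

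Set A, with 30 rising genes, behaved differently. Its median response was 1.23 in F1 and 2.32 in F2, against 1.32 in N1 and 0.28 in N2, so that on this scale the low mean of NC_POP came from N2. In the fit of the counts this order was not kept, since the response of N1 was below that of N2 in 18 of the 30 genes, with a median difference of −0.07 in log2 fold change. N1 lay below 0.5 times F1 in 2 of the 30 genes, and N2 below 0.5 times F2 in 28. Only 3 of the 30 lay below 0.5 times the mean FC_POP response in each NC_POP line. In N2 the response had the opposite sign in 6 genes.

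The genes of set A divided families within a group. In FC_POP with care the set median per library ran from 1.12 (F2_34) to 7.94 (F2_31) in log2(CPM + 1), whereas without care it ran from 5.63 to 7.83. Families with a set median under 4 numbered 4 of 12 in FC_POP with care, 0 of 11 in FC_POP without care, 2 of 11 in NC_POP with care and 2 of 12 in NC_POP without care. The response in F2 thus joined a wide range with care to a narrow, high range without it, and N2 with care ran from 4.84 to 6.95 and held no family under 4.

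LOC108566305 (gene11493), of rank 3, shows this range. In FC_POP it ran from 0.168 to 1010 CPM with care (median 187) and from 200.3 to 1208 without (median 467). Its levels in NC_POP ran from 1.76 to 2183 CPM with care (median 65.9) and from 0.141 to 1861 without (median 275). Several families with care had levels as high as those without it, and the environments overlapped in both populations. The lowest NC_POP family without care was N2_08, at 0.141 CPM, and the highest with care was N1_27, at 2183 CPM. The responses were 3.02 in F1 and 3.59 in F2, against 2.66 in N1 and 0.58 in N2.

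LOC108561769 (gene7401) ran from 9.54 to 486 CPM in FC_POP with care (median 136) and from 232 to 598 without (median 414). In NC_POP it ran from 17 to 1151 CPM with care (median 90.1) and from 14.1 to 1144 without (median 196). FC_POP families without care lay in a narrow range that the NC_POP families did not share. Its response was −0.16 in N2 and between 1.92 and 2.40 in the other lines. In the fit of the counts described below, which compares mean counts and not mean logarithms, its log2 fold change in FC_POP was 1.0 (standard error 0.681, adjusted p = 0.229).

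The response of set A depended on single families. In F1 the median was 0.72 without F1_15, in place of 1.23. Without N2_08, which was lowest in 28 of the 30 genes in N2 without care, the median response in N2 was 0.73 in place of 0.28. Without N2_07, which was highest in 20 of the 30 in the same group, it was −0.06. It was −0.06 without N2_16, 0.02 without N2_06 and 0.46 without N2_21 as well. In N1 the median lay between 0.88 (without N1_25) and 1.86 (without N1_27), in place of 1.32.

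Members that lie together in the annotation were mostly of set A. Of the 80, 7 stood next to another member and 10 within 2 places of one. LOC108560035, LOC108560040, LOC108560038 and LOC108560039 lie in 1 run, with a median correlation among families of 0.979 and responses of 1.21 to 1.44 in F1, 3.59 to 3.92 in F2, 1.74 to 2.08 in N1 and 0.20 to 0.58 in N2. LOC108560034 and LOC108560037, of the same run, responded alike (2.41 and 1.27 in F1, 5.16 and 4.16 in F2, 3.04 and 1.78 in N1, 0.54 and 0.27 in N2) but had mean levels of 695 and 730.1 CPM, above the limit of the rule. The next gene, LOC108560041, did not share this pattern (0.20 in F1 and 0.51 in F2). LOC108560040 (gene5831) itself ran from 0.369 to 325 CPM in FC_POP with care (median 56.4) and from 37.7 to 528 without (median 178). Among NC_POP families it ran from 0.339 to 215 CPM with care (median 69.7) and from 0.927 to 424 without (median 127). A few families had nearly none of it, in each group except FC_POP without care.

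LOC108566304 and LOC108566305 are neighbours with a correlation of 0.880 among families, and the following LOC108566308 responded alike (1.97, 3.36, 1.84 and −0.08 in F1, F2, N1 and N2) at a mean of 2830 CPM. LOC108563907 and LOC108563909 are neighbours with a correlation of 0.667, and LOC108563908, next to them, had responses between −0.29 and 0.04. In set C, LOC108567304 and LOC108567302 had a correlation of 0.906 and are separated by LOC108567303, whose responses lay between −0.06 and 0.04. Covarying members thus lay beside genes that shared the response and beside genes that did not. Scaffold positions are not given here, and reads shared between neighbouring copies could not be examined.

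**Figure D5:**
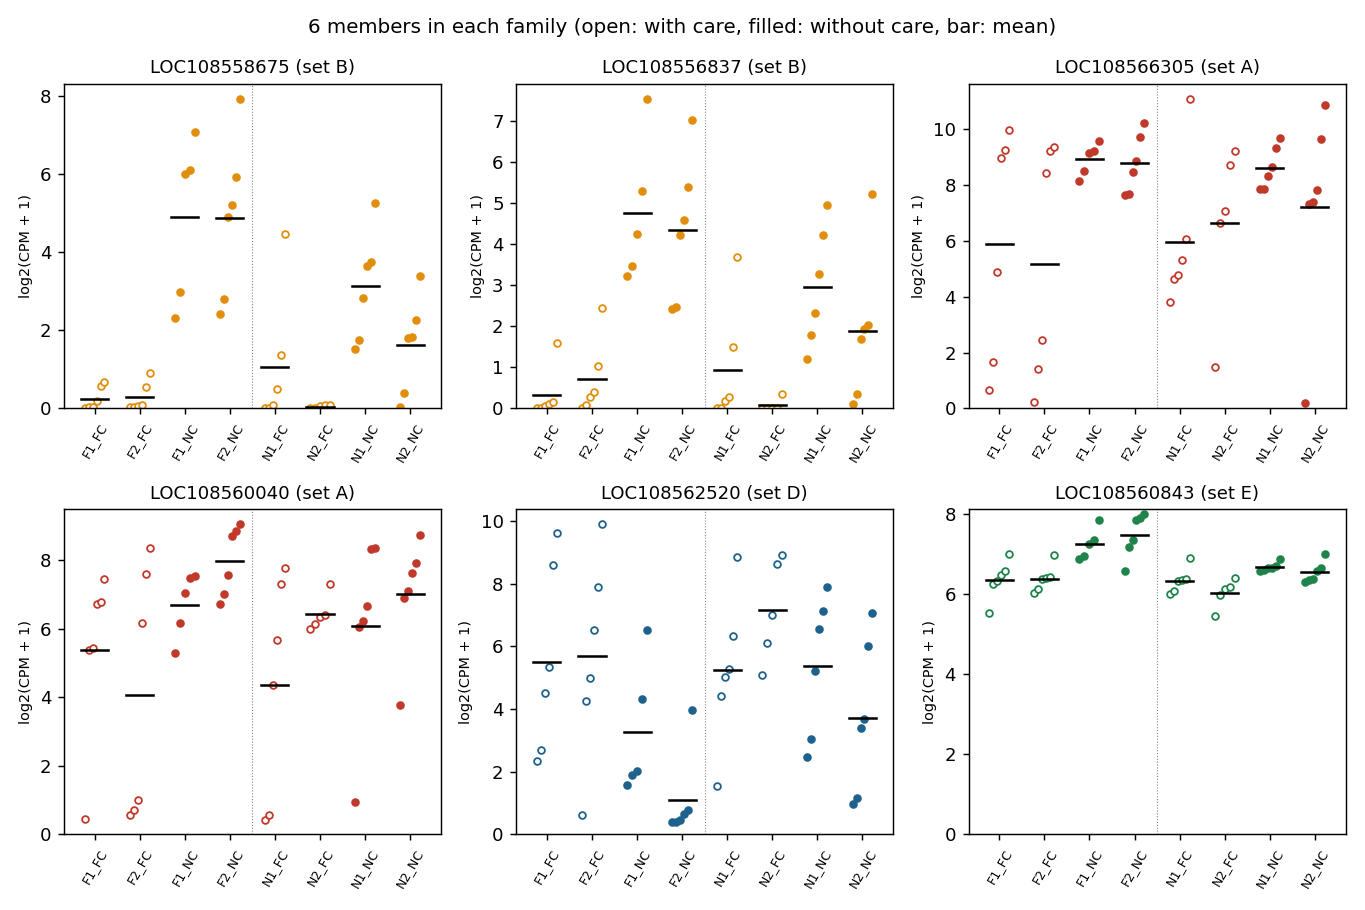
Level of 6 members in every family, in log2(CPM + 1), by line and environment, with open points for FC_ENV, filled points for NC_ENV and bars for group means. LOC108558675 and LOC108556837 (set B) are near 0 in most families with care, LOC108566305 and LOC108560040 (set A) are low in some families and high in others, LOC108562520 (set D) is lowest in F2_NC, and LOC108560843 (set E) varies little.

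Set D held the 11 falling members. Its median response, signed by its direction, was 1.19 in F1 and 1.98 in F2, against 0.07 in N1 and 1.21 in N2. All 11 genes responded less in N1 than 0.5 times F1, 5 of them with the opposite sign, whereas N2 lay below 0.5 times F2 in 3. On the scale of log2(CPM + 1), N1 had the smaller response in set D and N2 in set A. In the fit of the counts N1 had the smaller response in 8 of the 11 genes of set D, and in set A the order was not kept. Without F1_14 the median of set D in F1 was 0.61 in place of 1.19. In N1 it lay between −0.16 (without N1_37) and 0.28 (without N1_27), with either sign, and was negative without any one of N1_22, N1_23, N1_25, N1_32, N1_37 and N1_40.

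LOC108562520 (gene8076) was the falling member of highest rank. In FC_POP it ran from 0.544 to 954 CPM with care (median 35.4) and from 0.303 to 90.8 without (median 1.98). In F2 without care, 5 of the 6 families lay at low levels and F2_41 had 14.5 CPM, with a median of 0.470. In NC_POP it ran from 1.92 to 487 CPM with care (median 68.0) and from 0.962 to 236 without (median 23.9). Environments overlapped in both populations, and the median without care was higher in NC_POP than in FC_POP. In the fit of the counts, this gap in NC_ENV was 2.40 in log2 fold change (standard error 1.08). It was not called (adjusted p = 0.250 in edgeR's quasi-likelihood test). By line the responses were −2.25 in F1 and −4.60 in F2, against 0.14 in N1 and −3.44 in N2, so that the response in NC_POP came from N2.

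LOC108560853 (gene6575) ran from 0.610 to 76.4 CPM in FC_POP with care (median 5.15) and from 0.0948 to 8.44 without (median 1.38). Families of NC_POP ran from 1.23 to 29.9 CPM with care (median 3.95) and from 0.587 to 18.8 without (median 4.44). Its medians in NC_POP did not fall, and its responses of −0.14 in N1 and −0.39 in N2 were both small beside −1.29 in F1 and −1.98 in F2. LOC108561871 (gene7492), with the lowest ratio of all members, ran from 0.00922 to 24.6 CPM in FC_POP with care (median 1.74) and from 0.0171 to 1.37 without (median 0.321). In NC_POP its medians were 0.692 CPM with care and 0.674 without. The highest NC_POP family without care was N2_08, with 18.8 CPM. The other falling members of high rank, LOC108560850, LOC108563293, LOC108564036 and LOC108563184, had responses from −1.33 to −1.19 in F1, from −2.61 to −1.51 in F2, from −0.40 to 0.12 in N1 and from −2.04 to −0.80 in N2.

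Families high in set D were often low in set A. In 4 of the 8 groups the family with the lowest median of set A had the highest of set D (F2_34, N1_30, N2_16 and N2_08), and in 5 of the 8 the family with the highest median of set A had the lowest of set D (F1_18, F2_31, N1_27, N2_21 and N2_06). N2_08 had the highest level of all 11 genes of set D in N2 without care, and without it the median response of set D in N2 was 1.67 in place of 1.21.

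Set C comprised 12 rising genes with median responses of 1.18 in F1 and 1.10 in F2, against 0.45 in N1 and 0.57 in N2. In NC_ENV all 12 were lower in NC_POP than in FC_POP, and in FC_ENV 9 of the 12 were as well, with median gaps of −1.11 and −0.12. LOC108567302 (gene12378) had the largest such gap with care. It ran from 0.303 to 15.9 CPM in FC_POP with care (median 3.79) and from 1.59 to 29.1 without (median 10.3). Its levels in NC_POP ran from 0.0776 to 23.1 CPM with care (median 0.802) and from 0.350 to 34.3 without (median 0.886). In N2 no family of either environment exceeded 0.928 CPM, whereas in N1 single families (N1_23 with care and N1_32 without) had 23.1 and 34.3 CPM. LOC108564204, at the upper limit of the ratio, had responses of 1.17, 0.91, 0.38 and 0.65 in F1, F2, N1 and N2. N1_23 had the highest level in N1 with care in 11 of the 12 genes, and without it the median response of set C in N1 was 0.73 in place of 0.45. The same median was 0.06 without N1_32, 0.23 without N1_22, 0.26 without N1_40 and 0.28 without N1_26. In N2 it was 0.31 without N2_08 in place of 0.57.

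Set E comprised 5 rising genes with median responses of 1.06 in F1 and 1.52 in F2, against 0.43 in N1 and 0.79 in N2, and both NC_POP lines responded less than the FC_POP line of their block in all 5. LOC108557039 (gene3162) and LOC108560843 (gene6556) are described after their values were seen. LOC108557039 ran from 46.5 to 107 CPM in FC_POP with care (median 79.1) and from 73.0 to 410 without (median 201). In NC_POP it ran from 48.7 to 101 CPM with care (median 59.0) and from 59.0 to 154 without (median 83.1). With care the populations overlapped, and without care the FC_POP median lay above the highest NC_POP family. LOC108560843 varied little among families, with a residual SD of 0.37 in log2(CPM + 1). In FC_POP it ran from 44.8 to 127 CPM with care (median 82.5) and from 94.1 to 253 without (median 161). Among NC_POP families it ran from 42.5 to 118 CPM with care (median 71.1) and from 78.3 to 127 without (median 97.8). With care the ranges of the populations overlapped, and without care the FC_POP median again lay above the highest NC_POP family. The 6 members in no set had median responses of 1.11, 1.20, 0.26 and 0.76 in F1, F2, N1 and N2.

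The counts were also fitted in edgeR with the 4 groups of population and environment and the block as a covariate, and a gene was called where its adjusted p (Benjamini-Hochberg) was under 0.01 and its log2 fold change 1 or more in size. These contrasts are those of the rule, so the counts are descriptions and nothing is read from them. In FC_POP, 40 of the 80 members were called, 29 higher and 11 lower without care, where 7.06% of all genes tested were called (4.34% higher and 2.72% lower). Of the 40, 15 belonged to set B, 11 to set D, 5 to set C, 3 to set A, 3 to set E and 3 to no set. Block 1 alone called 11 members, where 292 of 11761 genes tested were called. Block 2 alone called 16, where 412 of 11687 were. Without F1_14, 33 members were called, and 6 in place of 11 of set D, where 703 of 11772 genes were called.

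In set B the median fitted log2 fold change was 4.09 in FC_POP and 1.56 in NC_POP. In set D the corresponding medians, in the falling direction, were 2.97 and 0.58, and in set A they were 0.93 and 0.53. The change in mean counts was thus smaller in set A than the change in mean logarithms, and in 26 of the 30 genes of set A, and in all genes of the other sets, the fitted change was smaller in NC_POP than in FC_POP. It was below 0.5 times that of FC_POP, the limit of the rule, in 54 of the 80 members. In set A this held for 12 of the 30 genes, with a median ratio of 0.52.

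In NC_POP, 2 members were called, LOC108566664 and LOC108562127 (named after its values were seen), both of set B and higher without care, where 2.31% of all genes were called and 1.36% were called higher. Without N1_29 the count was 11, of which 10 belonged to set B. The fitted log2 fold change of LOC108558675 in NC_POP was then 5.11 (standard error 1.01) in place of 2.18 (standard error 1.03), against 8.10 (standard error 1.27) in FC_POP with all libraries. The count was 1 when any one of N1_22, N1_23, N1_25, N1_26, N1_27, N1_32, N1_33, N1_40, N2_08, N2_16, N2_17, N2_18, N2_21 and N2_24 was left out. The rise in calls was not confined to members. Without N1_29 and N2_08, 611 of 11755 genes tested were called in NC_POP, 11 of them members, against 272 of 11777 with all libraries.

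No member passed the thresholds for the difference between the responses of the populations, and 0.00% of all genes did. At an unadjusted p under 0.05 there were 24 of the 80 members and 7.98% of all genes. DESeq2 called 0 members, where it called 1 of 11770 genes. The difference chosen by the rule was thus not called for any single member. For LOC108558675, which had the lowest p among members, the difference was −5.92 in log2 fold change (standard error 1.47, adjusted p = 0.53 in edgeR's quasi-likelihood test).

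Between the populations in FC_ENV, 0 members were called by edgeR or by DESeq2, where edgeR called 0.0425% of all genes and DESeq2 called 14 of 11770. An unadjusted p under 0.05 was found in 3 members and 7.53% of all genes. In NC_ENV the only member called by edgeR was LOC108557039 of set E, lower in NC_POP with a log2 fold change of −1.22 (standard error 0.214, adjusted p = 0.00298), where 0.0849% of all genes were called (0.0764% lower). At an unadjusted p under 0.05 there were 27 of the 80 members and 16.6% of all genes. LOC108560843 had the lowest p of the members and a log2 fold change of −0.87 (standard error 0.143, adjusted p = 0.00181), under the minimum size. DESeq2 called 5 members in NC_ENV, where it called 34 of 11770 genes. Of the 5, 3 belonged to set E (LOC108557039, LOC108563662 and LOC108567925), 1 to set D (LOC108563293) and 1 to set B (LOC108561824). For this gap edgeR called 0 members in block 1 alone, where 1 of 11761 genes was called. In block 2 alone it called 3 members, where 23 of 11687 genes were called.

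The rule read only the mean of the responses of N1 and N2, and their difference was tested in a fit with all 8 groups. This difference is not fully independent of the choice, since 1 family can move both it and the mean. Without N1_29, for example, 59 of the 80 members still met the ratio condition of the rule. No member was called by edgeR or DESeq2, where edgeR called 0.00% of all genes and DESeq2 called 6 of 11776. At an unadjusted p under 0.05 there were 6 of the 80 members, against 8.25% of all genes. The lowest p was that of LOC108561974 (gene7592, set C), with a response in N1 minus that in N2 of −2.87 in log2 fold change (standard error 1.15, adjusted p = 0.57). In N1 this gene ran from 0.867 to 16 CPM with care (median 1.92) and from 0.781 to 2.35 without (median 1.74), and in N2 from 0.471 to 6.03 with care (median 1.34) and from 2.1 to 9.77 without (median 3.91). The environments overlapped in both lines, and N1_23 was the family with 16 CPM. The others were LOC108558675, LOC108556837, LOC108557915 and LOC108558213 of set B and LOC108560850 of set D. The unequal responses of N1 and N2 in sets A and D on the scale of log2(CPM + 1) were thus not called for any single gene of these sets in the fit of the counts.

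The mean level of block 1 against block 2 was not used by the rule. LOC108567302 was the only member called by edgeR and by DESeq2. Its level was higher in block 1 by 2.05 in log2 fold change (standard error 0.510, adjusted p = 0.00612 in edgeR). Over all genes, edgeR called 0.425% (0.289% higher in block 1) and DESeq2 called 92 of 11776. Its median CPM with care was 7.15 in F1 and 3.02 in F2, against 1.41 in N1 and 0.762 in N2, and without care 11.9 in F1 and 7.23 in F2, against 1.19 in N1 and 0.706 in N2. Both NC_POP lines had lower medians than F1 and F2, and N2 had the lowest. The call was lost when any one of F1_09A, N1_23, N1_32, N2_16 and N2_18 was left out. At an unadjusted p under 0.05 there were 9 of the 80 members, against 28.5% of all genes. Each block ran in its own week and held its own lines, and the line and the week cannot be told apart.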

How the data were processed

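RNA was extracted from pooled larval heads and libraries were made from polyadenylated RNA, with 1 library for each of 46 families. According to the study's methods, reads were trimmed, aligned with HISAT2 and assembled and quantified with StringTie against the annotated genome. HISAT and StringTie are also named in the submitters' processing notes, without versions. The authors deposited whole-number counts for 13761 genes, not normalised, and 0 columns belonged to no sample of the series. The 14 bisulfite libraries were not analysed here.

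The members and the gene lists were chosen with earlier results of these data known. CPM was computed by dividing counts by the library total, and log2(CPM + 1) served for the rule and for the correlations among families. Counts were tested in R 4.3.3 with edgeR 4.0.16 (quasi-likelihood, TMM normalisation) on the 11777 genes that reached 15 counts in 10% of the libraries or more, with p-values adjusted over all of them. DESeq2 1.42.0 was an alternative, and Python 3.11.15 served for other steps. Families are the replicates, so p-values measure the spread among families and not among lines. StringTie derives counts from coverage, so that library totals (102719698 to 145666277) are sums of the deposited values and not numbers of reads, and no counting intervals are given. Comparison of the 110 pairs of families sharing a group found 0 identical libraries. The steps were tested on simulated data.

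Genes named were the 6 rising and the 6 falling members of highest rank, the member of lowest rank, the first gene left out, members next to another member, the 4 highest and the 4 lowest ratios, and members called in the tests of N1 against N2 and of the blocks. Other names were chosen after their values were seen. File identifiers were paired with RefSeq symbols of the same assembly by their order in the annotation. The pairing was checked on 82 genes listed by the study under both names and on 1999 genes by their mean normalised count, and all matched, among them 14 members. Of the 80 members, 79 lie between checked genes in the annotation. Lists of genes by product, cell type markers and promoter motifs needed products or sequences that the tables used here do not give for the members, and were not applied.

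Alternatives were another pseudocount (0.5 and 5), TMM scaling and no CPM limits for the rule, DESeq2 and its size factors, no filter and a stricter filter, no block covariate, each block alone, a looser threshold and each library left out in turn. The setting without N1_29 and N2_08 was added after the data were seen.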

Additional observations from a re-analysis of the deposited data

Results flagged for a closer look

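The 5 or 6 families of a group were compared by Dixon's criterion at the 95% level. In 17 of the 135 comparisons, the highest or the lowest family stood apart from the others. For independent, normally distributed values, chance would give about 1 in 20, or 6.75. The comparisons were not independent, since genes of a set covary and the set B median was compared beside its own genes. In some, all families but the highest had no counts, so that any count made that family stand apart. The 17 therefore cannot be read as an excess over 6.75. All values are log2(CPM + 1), each with that of the nearest family of its group.

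Within set B, the median level of F1_20 in F1 with care was 0.586 against 0.214, and that of N1_29 in N1 with care was 2.69 against 0.602. N1_29 also stood apart in LOC108558675, at 4.45 against 1.36, and F1_20 in LOC108556837, at 1.58 against 0.161. In LOC108556837, N2_24 had 0.36 in N2 with care, where the others were at 0. In LOC108566664, F2_28 had 0.0819 in F2 with care, where the others were at 0, and N2_08 had 4.73 in N2 without care against 1.02. In LOC108557915, F1_14 had 0.70 in F1 with care against 0.0661, and N2_21 had 0.25 in N2 with care, where the others were at 0. The families that stood apart in set B were all high.

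Within set A, LOC108566305 was high in N1_27 in N1 with care, at 11.1 against 6.06, and low in N2_08 in N2 without care, at 0.19 against 7.31. LOC108560040 was low in F1_15 in F1 with care, at 0.453 against 5.37, in N1_30 in N1 without care, at 0.946 against 6.04, and in N2_08 in N2 without care, at 3.76 against 6.90. In set D, LOC108562520 was high in F2_41 in F2 without care, at 3.95 against 0.775, and LOC108561871 in N2_08 in N2 without care, at 4.31 against 0.928. In set C, LOC108567302 was high in N1_23 in N1 with care, at 4.59 against 1.52. N2_08 thus stood apart in genes of sets A, B and D, low in the first and high in the others. Why these families stood apart was not tested.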

How the results depend on the processing

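The choice of members depended on the scale of the values and on single families. Of the 80, 72 were kept with a pseudocount of 0.5, 45 with 5, 61 with TMM scaling, 67 without CPM limits, 24 when each of N1 and N2 had to lie below 0.5 times the response, and 45 without N1_29 and N2_08. Leaving out 1 family kept from 51 (N2_07) to 75 (F2_38), with 52 without N1_27. Members called in FC_POP numbered 11 in block 1 alone and 16 in block 2 alone, and from 33 to 42 with 1 family left out. Those called in NC_POP numbered 6 at an adjusted p under 0.05 with no minimum fold change, 4 in DESeq2, 1 with the stricter filter, 1 in block 1 alone and 11 without N1_29 and N2_08, and from 1 to 11 with 1 family left out. Over all genes tested, the calls in the first 5 of these settings, in the same order, were 4018 of 11777, 419 of 11770, 272 of 11060, 134 of 11761 and 611 of 11755. The larger population gap lay in FC_ENV for 15 members, for 32 in block 1 alone, and for 11 to 23 with 1 family left out, the highest without N1_27. The median correlation among families was 0.141 in the FC_POP libraries alone, with 24% of pairs over 0.5, and lay between 0.081 and 0.118 and between 20.8% and 22% with 1 family left out. Between blocks, 3 of the 80 members passed an adjusted p under 0.05 with no minimum fold change (LOC108567302, LOC108567304 and LOC108558675). Over all genes tested, 1684 of 11777 did. At the main thresholds, 0 or 1 member was called with 1 family left out. For the difference between the responses of the populations and for N1 against N2, 0 members were called under every alternative run. Of 216 fitted responses of named genes under an alternative, 207 moved by no more than the gene's SD among families and 9 moved by more. That SD is of single families in log2(CPM + 1) and reached 2.93 (LOC108566305). It is a wide limit on another scale, and the 207 do not show that the fits were stable. In 6, all among the 207, the sign changed when 1 family was left out, all in NC_POP and none called: LOC108556737, LOC108561769 and LOC108566304 (without N2_07), LOC108557915 (without N1_33), LOC108567302 (without N1_32) and LOC108561871 (without N1_23). No paired analysis was possible because each family belongs to a single group, and a number shared by families of different lines marks no common origin in the labels. Set levels rest on 5 or 6 families in a group, and levels near 0 CPM in sets B and C rest on few counts.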
